A study of Mus musculus with 4 samples.

Results

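The 9 genes described here encode inhibitors and other regulators of the transcription factor NF-κB: the cytoplasmic IκB proteins Nfkbia, Nfkbib and Nfkbie, the nuclear IκB proteins Nfkbiz, Nfkbid and Bcl3, and the ubiquitin editor A20 (Tnfaip3) with its binding partners Tnip1 and Tnip3. They were chosen by gene symbol, and all 9 were found among the 32285 genes of the count matrices. The cells were CD45+ immune cells sorted from the spinal cords of C57BL/6 mice with experimental autoimmune encephalomyelitis (EAE), an immunization-induced model of multiple sclerosis in which T cells and myeloid cells invade the central nervous system. The Reg1-MO group comprised 2 libraries from mice that received Reg1-MOs by intracranial injection on day 9 after immunization, and the control group comprised 2 libraries from mice given Ctrl MO in the same way; all cells were collected on day 16. Here MO is read as morpholino, an antisense oligomer that blocks translation or splicing of a chosen transcript, and Reg1 as Regnase-1 (gene Zc3h12a), although the labels spell out neither. The labels do not say whether the 2 libraries of a group came from separate animals or from pools, so all p-values below measure only the spread between these libraries. Both groups share the immunization and the injection, and no healthy or uninjected mice were among the samples.

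In resting cells the cytoplasmic IκB proteins hold NF-κB dimers outside the nucleus; activation of the IκB kinase complex leads to their degradation and frees the dimers. Nfkbia is itself a direct NF-κB target, and its resynthesis closes a negative feedback loop. The nuclear proteins IκBζ (Nfkbiz), IκBNS (Nfkbid) and Bcl-3 (Bcl3) bind p50 or p52 dimers on DNA and can raise or lower transcription of selected inflammatory genes. A20 removes or edits ubiquitin chains on signalling proteins upstream of the kinase complex, and its partners ABIN-1 (Tnip1) and ABIN-3 (Tnip3) bind ubiquitin chains and A20. Regnase-1 is an endoribonuclease that degrades inflammatory mRNAs through stem-loops in their 3′ untranslated regions, and Nfkbiz and Nfkbid are among its reported targets.

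The 9 genes lie at separate places in the mouse genome (GRCm38, GENCODE release M21), and all are protein-coding. Nfkbia (ENSMUSG00000021025) is at chr12:55489410-55492647 on the minus strand, Nfkbib (ENSMUSG00000030595) at chr7:28758251-28767512 on the minus strand, and Nfkbie (ENSMUSG00000023947) at chr17:45555703-45563169 on the plus strand. Nfkbiz (ENSMUSG00000035356) is at chr16:55811375-55838899 on the minus strand, Nfkbid (ENSMUSG00000036931) at chr7:30421732-30428746 on the plus strand, and Bcl3 (ENSMUSG00000053175) at chr7:19808462-19822770 on the minus strand. Tnfaip3 (ENSMUSG00000019850) is at chr10:19000910-19015657 on the minus strand, Tnip1 (ENSMUSG00000020400) at chr11:54910785-54962917 on the minus strand, and Tnip3 (ENSMUSG00000044162) at chr6:65525313-65634040 on the plus strand. Annotated genes overlap 3 members on the opposite strand: Ccer2 and Sirt2 with Nfkbib, Gm16175 and Gm16174 with Bcl3, and Gm12230 with Tnip1. Strand use in the counting is not given in the sources used here, so reads of these pairs may not be told apart.

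The promoters are shown first because the members share a feature that the choice by symbol did not use, the κB consensus bound by NF-κB. RefSeq promoter windows (GRCm38.p6, 250 bases before to 50 bases after a start site) were matched for 8 of the 9 members. The consensus, 10 letters long and searched by name on both strands, occurred in the windows of 7 of these 8 members (87.5%), against 9.55% of 27025 genes with a window. A gene counted as matched if any of its windows matched. Nfkbid had 3 windows and Tnfaip3 had 2, and for each gene the matches lay in a single window. Nfkbib was the member with a window and no match. The matching stretches are given below with their flanks, 5′ to 3′ on the strand of the gene, with the consensus match in capitals. Their coordinates are chr12:55492658-55492685 for Nfkbia, chr17:45555585-45555612 for Nfkbie, chr7:30422171-30422198 and chr7:30422216-30422243 for Nfkbid, chr7:19822735-19822762 for Bcl3, chr10:19015517-19015544 and chr10:19015404-19015431 for Tnfaip3, chr11:54962978-54963007 for Tnip1 and chr6:65590335-65590362 for Tnip3.
Nfkbia promoter: gactggcttGGAAATTCCCcgcgcctga
Nfkbie promoter: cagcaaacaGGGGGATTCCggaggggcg
Nfkbid promoter, upstream match: ccccgccctGGGACTTCCCagagcacca
Nfkbid promoter, downstream match: ggccgaacaGGAATTCCCCgtgcgcggg
Bcl3 promoter: cggcggcagGGGAAGTCCCgctgcccgg
Tnfaip3 promoter, upstream match: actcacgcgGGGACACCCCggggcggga
Tnfaip3 promoter, downstream match: atttccatcGGAAATCCCCctgttggca
Tnip1 promoter: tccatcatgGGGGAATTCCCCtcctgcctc
Tnip3 promoter: agacatcctGGGAAATCCCagttacatg
The first matching base, counted from the start site of the matching window, lay at -29 in Nfkbia, -54 in Tnip3, -58 in Tnip1 and -106 in Nfkbie. Tnfaip3 had matches at -125 and -12, Nfkbid at -226 and -181, and Bcl3 at 2. In Tnip1 the capitals join overlapping matches. These are matches of letters, not measured binding sites.

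Short stem-loops in the 3′ untranslated regions are shown because Nfkbiz and Nfkbid are the members reported as Regnase-1 targets. A stem of 6 pairs, G-U pairs allowed, closed around a loop of pyrimidine, purine and pyrimidine, was searched in the annotated 3′ untranslated region of 1 transcript per gene. Nfkbiz held 2 such stem-loops in 1355 bases and Nfkbid held 4 in 559 bases. Below, the loop is in capitals and the stem in lower case.
Nfkbiz 3′ UTR, first: tgtttcTATgaaaca
Nfkbiz 3′ UTR, next: cactatTATatagtg
Nfkbid 3′ UTR, first: ctccaaTATttgggg
Nfkbid 3′ UTR, next: gatttcTGTgaaatc
Nfkbid 3′ UTR, next: tgtttcTGTgaaaca
Nfkbid 3′ UTR, last: agtttcCATgggatt
Tnfaip3 held 2 matches, Nfkbib and Bcl3 1 each, and Nfkbia, Nfkbie, Tnip1 and Tnip3 none. Across 21037 genes, 38.2% held at least 1 match, at 0.456 per 1000 bases (kb) of 3′ untranslated region, with a median length of 960 bases. A match is a description of the sequence and no measure of Regnase-1 cleavage.

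The matrices held 9103 and 5256 barcodes in the Reg1-MO libraries and 8255 and 6765 barcodes in the control libraries, with total counts of unique molecular identifiers (UMIs) between 75472324 and 174552218 per library. After filtering, 26853 cells fell into 28 clusters, of which 25 were named from marker genes and 3 remained unnamed. Class names end in "-like" because they were rebuilt from markers and are not the submitters' own. Neutrophil-like cells made up 4.98 and 19.0% of the Reg1-MO libraries, against 23.9 and 36.0% of the control libraries. Microglia-like cells made up 15.3 and 21.2% of the Reg1-MO libraries, against 7.50 and 8.37% of the control libraries. With 2 libraries against 2 the smallest two-sided exact permutation p is 0.333, so no share could pass that test. Zc3h12a, the gene whose product the oligomer is read to target, was not called in any of the 8 tested classes or in cluster 16. It was higher in both Reg1-MO libraries than in either control library in neutrophil-like cells (55.4 and 54.0 counts per 1000000 UMIs, CPM, in the Reg1-MO libraries and 45.8 and 44.1 CPM in the control libraries), in myeloid progenitor-like cells (31.6 and 29.7 CPM in the Reg1-MO libraries and 23.4 and 22.7 CPM in the control libraries) and in CD8 T-like cells (61.8 and 60.2 CPM in the Reg1-MO libraries and 53.2 and 51.2 CPM in the control libraries). Of all genes, 14.4% were so placed in neutrophil-like and 27.8% in myeloid progenitor-like cells. In macrophage-like cells Zc3h12a stood at 48.4 and 49.9 CPM in the Reg1-MO libraries and at 49.8 and 59.3 CPM in the control libraries. Its largest log2 fold change in size was -0.58 ± 0.40 SE, in microglia-like cells. There it had 58.4 and 77.7 CPM in the Reg1-MO libraries and 62.6 and 138 CPM in the control libraries. Others were -0.26 in NK/ILC1-like, -0.11 in macrophage-like, -0.056 in CD4 T-like and 0.033 in regulatory T-like cells, and 0.21 in cluster 16. In all of these the groups overlapped. The labels do not say whether translation or splicing was to be blocked, so these values do not check the labels.

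Levels are given as CPM of all UMIs that a class held in a library. Such counts come from 3′ ends and are not divided by length, so levels are compared between cell types for 1 gene at a time, as a description with no test. Nfkbia was highest in the unnamed cluster 16, at 3894 ± 1784 CPM (SD, n = 4 libraries). That cluster was led by Cxcl3, Acod1 and Cxcl2, inflammatory genes of activated myeloid cells; neutrophil markers matched it best, but it stayed unnamed because its median of 3066 UMIs per cell was low and none of those markers was among its leading genes. The next Nfkbia levels were 3119 ± 1334 CPM in mast/basophil-like, 1612 ± 192 in gamma delta T-like, 1484 ± 118 in regulatory T-like, 1375 ± 143 in migratory dendritic-like and 1158 ± 37.4 in CD4 T-like cells. Nfkbia stood at 761 ± 278 CPM in microglia-like, 731 ± 76.3 in NK/ILC1-like, 680 ± 303 in conventional dendritic-like and 665 ± 70.7 in CD8 T-like cells. The lowest levels were 509 ± 202 CPM in macrophage-like, 413 ± 82.5 in neutrophil-like, 332 ± 135 in myeloid progenitor-like, 316 ± 89.4 in B/plasma-like and 276 ± 47.3 in plasmacytoid dendritic-like cells. Each neighbour in this order overlapped with the next in the range over libraries. Thus the order of single steps is not resolved, although the CD4 T-like range (1135 to 1214 CPM) lay wholly above the macrophage-like range (274 to 755 CPM).

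**Figure D1:**
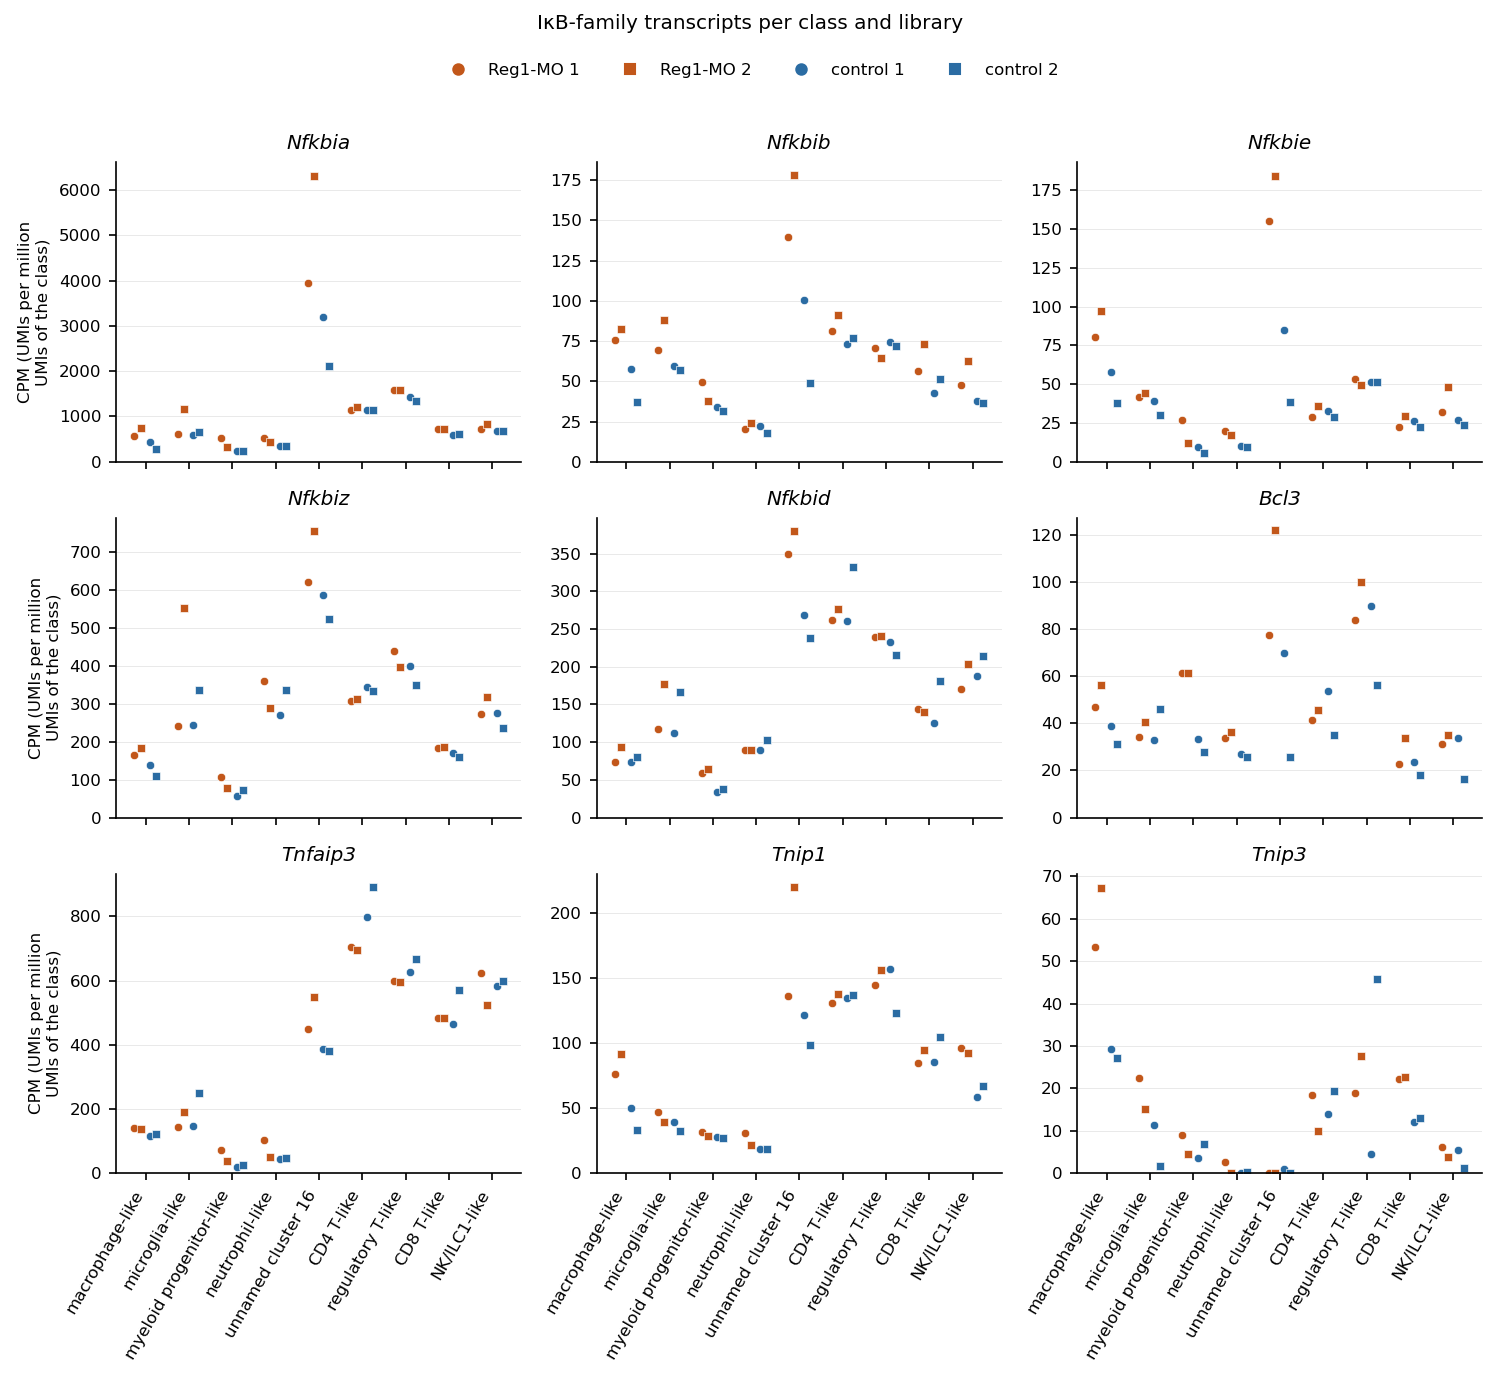
Level of each of the 9 genes (CPM of the class's UMIs, linear axis from 0, own scale per gene) in the 8 tested classes and cluster 16, by library. Points are single libraries, Reg1-MO in orange and control in blue; among these cells Nfkbia is highest in cluster 16 and Tnfaip3 in CD4 T-like cells, and Tnip3 is close to 0 in neutrophil-like cells.

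The other cytoplasmic inhibitors were highest in dendritic-like cells. Nfkbib reached 289 ± 38.7 CPM in migratory dendritic-like cells and did not overlap with the next, while it was lowest in neutrophil-like cells. Migratory dendritic-like cells numbered only 9 to 62 per library. Nfkbie reached 136 ± 27.3 CPM in migratory dendritic-like, 116 ± 66.2 in cluster 16 and 83.9 ± 23.4 in conventional dendritic-like cells, against 14.1 ± 5.13 CPM in neutrophil-like cells. Of the nuclear proteins, Nfkbiz was highest in mast/basophil-like cells (1250 ± 1220 CPM), where 2 to 32 cells per library carried the value. Cluster 16 followed with 621 ± 98.3 CPM of Nfkbiz, and myeloid progenitor-like cells were lowest with 78.1 ± 20.8. Nfkbid was highest in gamma delta T-like cells at 405 ± 153 CPM, followed by 309 ± 66.8 in cluster 16 and 283 ± 33.9 in CD4 T-like cells, the last of which did not overlap with the class below it. Gamma delta T-like cells numbered 17 to 95 per library, and the fewest, in control library 2, gave the highest Nfkbid value (631 CPM). Bcl3 had another order, with 101 ± 7.07 CPM in plasmacytoid dendritic-like and 82.4 ± 18.7 in regulatory T-like cells, and 24.4 ± 6.70 in CD8 T-like cells.

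Tnfaip3 was high in T-like and NK/ILC1-like cells, and also in the few mast/basophil-like cells. It stood at 1095 ± 50.4 CPM in gamma delta T-like, 771 ± 91.4 in CD4 T-like, 622 ± 32.8 in regulatory T-like, 582 ± 42.7 in NK/ILC1-like and 501 ± 47.4 in CD8 T-like cells. Cluster 16 held 442 ± 79.0 CPM and did not overlap with migratory dendritic-like cells at 205 ± 41.8. Macrophage-like cells held 130 ± 12.5 CPM of Tnfaip3 and plasmacytoid dendritic-like cells 37.4 ± 10.7. Tnip1 was highest at 145 ± 15.8 CPM in regulatory T-like cells and lowest at 22.6 ± 5.79 in neutrophil-like cells. Tnip3 was the member most restricted in level: 176 ± 33.6 CPM in migratory dendritic-like and 112 ± 43.7 in conventional dendritic-like cells, then 44.3 ± 19.4 in macrophage-like cells without overlap with the dendritic-like range.

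Across the 32 class-by-library sums of the 8 tested classes, the genes most like each member were ranked by Pearson correlation of log2(CPM + 1) among 6426 genes. These points share libraries and classes, so the values are descriptions. Nfkbia was closest to Nfkb1 (0.93), Gadd45b (0.92), Rel (0.90), Rap1b (0.89) and Fyb (0.89), of which Nfkb1 and Rel encode NF-κB subunits. Nfkbiz was closest to Rhoc (0.88), Itpr2 (0.87), Tgoln1 (0.87), Scaper (0.84) and Gtdc1 (0.83). Nfkbid was closest to Smad3, Rnf145 and Chd2 (0.93 each), then to Gm47664 and Zc3h12a (0.92 each). Tnfaip3 was closest to Lfng, Ttc39b, Il2rg and Tecpr1 (0.96 each) and to Tab2 (0.95). Among the members themselves, Nfkbid and Tnfaip3 correlated at 0.92 and Nfkbia and Nfkbid at 0.88, whereas Nfkbid and Bcl3 correlated at 0.18.

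In macrophage-like cells, the largest class with 2802 and 1180 cells in the Reg1-MO libraries and 2051 and 1434 cells in the control libraries, all 9 members had fold changes above 0, and 8 of 9 were higher in both Reg1-MO libraries than in either control library. Such separation occurred in 23.9% of the 13315 genes tested there. None of the 9 passed the test: edgeR's quasi-likelihood test with Benjamini-Hochberg adjustment called 0% of the genes of this class at an adjusted p under 0.05, although 2381 genes and 7 of the 9 members had an unadjusted p under 0.05. DESeq2, run as an alternative, called 5 members and 4.37% of the genes to which it gave an adjusted p, the base of each of its percentages given here, namely Nfkbia, Nfkbib, Nfkbie, Tnip1 and Tnip3. The median log2 fold change of the 9 was 0.77, against -0.012 over all genes tested. Members' adjusted p in edgeR lay between 0.229 and 0.588. Without control replicate 1, 7 members passed (18.6% of genes), and without control replicate 2, Tnip1 and Tnip3 passed (1.20% of genes).

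Among the cytoplasmic inhibitors of macrophage-like cells, Nfkbia stood at 562 and 755 CPM in the Reg1-MO libraries, against 445 and 274 CPM in the control libraries (log2 fold change 0.91 ± 0.28 SE). The groups did not overlap, and control library 2 was the lowest for this gene. Nfkbib had 75.7 and 82.2 CPM in the Reg1-MO libraries, against 57.5 and 37.4 CPM in the control libraries (0.77 ± 0.21). Nfkbie had 80.6 and 97.3 CPM in the Reg1-MO libraries, against 58.1 and 37.6 CPM in the control libraries (0.93 ± 0.23). Over all alternatives its log2 fold change ran from 0.37 to 1.27. All 3 genes thus shared 1 order, with Reg1-MO library 2 highest and control library 2 lowest.

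The nuclear IκB genes of macrophage-like cells differed among themselves. Nfkbiz had 166 and 183 CPM in the Reg1-MO libraries, against 138 and 109 CPM in the control libraries (0.53 ± 0.15), and Bcl3 had 46.7 and 56.4 CPM in the Reg1-MO libraries, against 38.6 and 31.2 CPM in the control libraries (0.59 ± 0.15). Both were separated between the groups. Nfkbid, the member with 4 stem-loop matches, had 73.7 and 94.2 CPM in the Reg1-MO libraries, against 73.5 and 80.9 CPM in the control libraries (0.15 ± 0.15). Its groups overlapped, and it was the member with the smallest fold change in this class.

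A20 and its partners differed more in size. Tnfaip3 had 142 and 138 CPM in the Reg1-MO libraries, against 116 and 122 CPM in the control libraries (0.27 ± 0.11). Tnip1 had 76.0 and 91.5 CPM in the Reg1-MO libraries, against 49.9 and 33.4 CPM in the control libraries (1.04 ± 0.22). Tnip3 had 53.4 and 67.3 CPM in the Reg1-MO libraries, against 29.4 and 27.2 CPM in the control libraries, and had the largest fold change of the members in this class (1.12 ± 0.14, edgeR adjusted p = 0.229). Over all alternatives its log2 fold change ran from 0.52 to 1.27. The groups of each of these genes did not overlap. Cells with at least 2000 UMIs were thinned to 2000 UMIs each, and cells below that depth were left out. Among the thinned macrophage-like cells, the share with a Tnip3 UMI was 8.00% (95% Wilson interval 7.05 to 9.07) and 10.9% (9.27 to 12.9) in the Reg1-MO libraries, against 4.42% (3.61 to 5.40) and 4.51% (3.55 to 5.72) in the control libraries. Unthinned shares, over all cells of the class, were 31.8 and 33.0% in the Reg1-MO libraries and 20.3 and 16.6% in the control libraries, at median depths of 14297 and 14021 UMIs per cell in the Reg1-MO libraries and 17201 and 17555 UMIs per cell in the control libraries. The thinned share in neutrophil-like cells, where Tnip3 was near 0, was at most 0.271% in any library, at median depths of 4768 to 6246 UMIs.

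**Figure D2:**
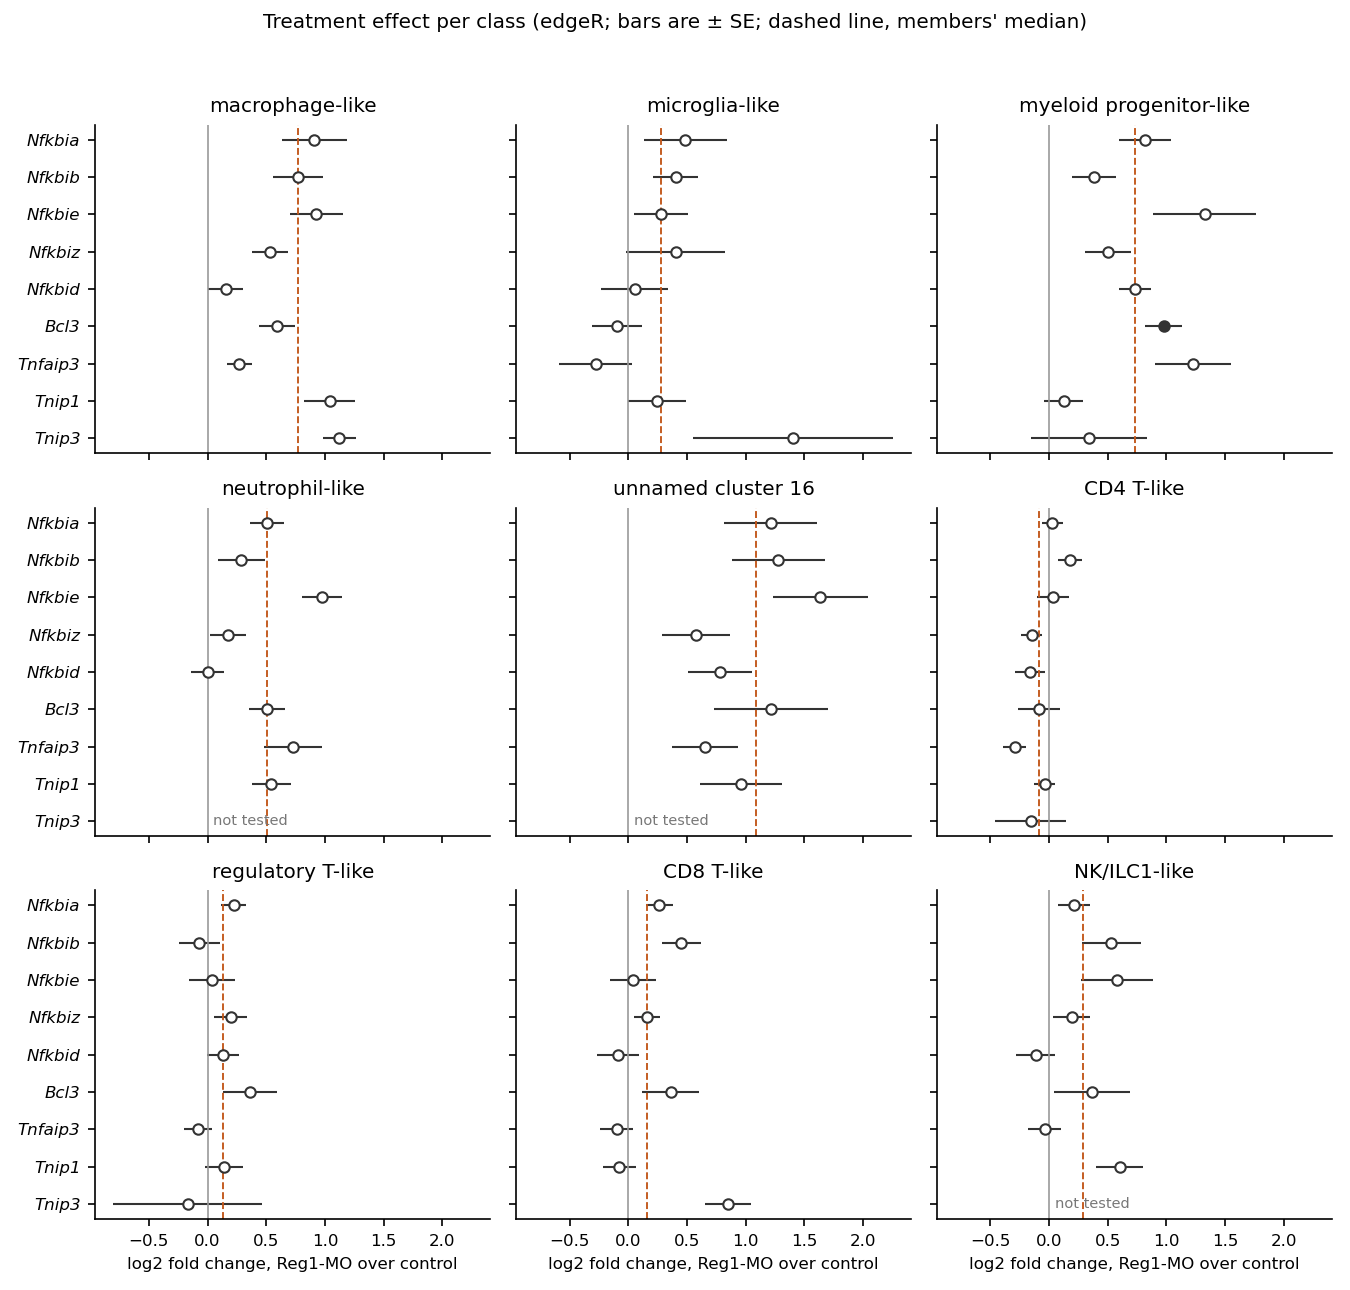
Log2 fold change of each of the 9 genes, Reg1-MO over control, by tested cell class (edgeR, bars are ± 1 SE, n = 2 libraries per group; the dashed line is the median of the members). Filled points have an adjusted p under 0.05; Bcl3 in myeloid progenitor-like cells (0.97 ± 0.16) is the filled one, and all points of macrophage-like, myeloid progenitor-like and cluster 16 cells lie above 0.

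Other genes of the pathway in macrophage-like cells are given as counts, none of which contains a called gene by edgeR. All 5 NF-κB subunits had fold changes above 0, with a median of 1.00, and Nfkb1 had 396 and 547 CPM in the Reg1-MO libraries, against 292 and 193 CPM in the control libraries (1.00 ± 0.26), whereas Rel had 188 and 265 CPM in the Reg1-MO libraries, against 139 and 134 CPM in the control libraries (0.76 ± 0.18). Of 24 NF-κB-responsive genes, 21 were above 0 (median 0.83); the cytokine gene Il1b had 3191 and 4311 CPM in the Reg1-MO libraries, against 2157 and 1110 CPM in the control libraries (1.23 ± 0.35), and the chemokine gene Cxcl2 had a log2 fold change of 0.50 ± 0.23. Upstream kinases and adaptors were more evenly divided, with 14 of 21 above 0 and a median of 0.12, as were the other ubiquitin editors, with 5 of 10 above 0 and a median of 0.041. Of 16 reported Regnase-1 targets, a list that includes Nfkbiz, Nfkbid, Rel and Zc3h12a, 14 were above 0 (median 0.57). Il6, Il12b, Cxcl1, Cxcl2 and Ptgs2 are in this list and among the NF-κB-responsive genes, so the counts of these lists are not separate. Ptgs2, the inducible cyclooxygenase, had 276 and 378 CPM in the Reg1-MO libraries, against 200 and 156 CPM in the control libraries (0.91 ± 0.20). Over all genes tested in this class, 48.6% were above 0. Of the genes reported to depend on IκBζ, 7 of 9 were tested and 4 were above 0; Lcn2, the siderophore-binding lipocalin that neutrophils also store, had 44.1 and 73.0 CPM in the Reg1-MO libraries, against 198 and 324 CPM in the control libraries (-2.13 ± 0.34). Immediate early and dissociation-sensitive genes, which respond to cell handling, had a median of 0.16, with 11 of 16 above 0.

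Markers of other cells moved with these values in macrophage-like cells. The 12 neutrophil markers summed to 1184 and 2615 CPM in the Reg1-MO libraries, against 4005 and 4168 CPM in the control libraries, with 11 of 12 below 0, and none at 0 UMIs. The 7 T cell markers summed to 24.4 and 35.3 CPM in the Reg1-MO libraries, against 16.2 and 7.18 CPM in the control libraries, all 7 above 0. The 9 microglia markers summed to 724 and 562 CPM in the Reg1-MO libraries and to 664 and 530 CPM in the control libraries. The part of these cells or of free RNA in the members' values was not tested.

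The macrophage-like class joined clusters that took unequal shares of the libraries, so the members were also read within clusters. Among genes with a mean of at least 5 CPM, 8 of 9 members were higher in both Reg1-MO libraries in cluster 0 (led by Plac8 and Ms4a4c), against 23.8% of genes there. Nfkbia in cluster 0 had 644 and 780 CPM in the Reg1-MO libraries, against 426 and 335 CPM in the control libraries, and Tnip1 had 79.8 and 105 CPM in the Reg1-MO libraries, against 49.5 and 35.2 CPM in the control libraries. Tnip3, with 62.5 and 76.6 CPM in the Reg1-MO libraries and 36.5 and 65.3 CPM in the control libraries, was the member that overlapped. Cluster 11 (led by Vcan and Plcb1) also had 8 of 9 members higher, against 31.1% of genes, again with Tnip3 overlapping.

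Clusters 4 and 5 were less uniform, and cluster 18 of this class was not read because control library 2 held 9 of its cells. In cluster 4 (led by Nos2 and Slc7a2), where control library 2 held 39 cells, 3 of 9 members were higher without overlap, against 19.5% of genes; these included Tnip1, with 92.3 and 106 CPM in the Reg1-MO libraries and 65.5 and 68.0 CPM in the control libraries. In cluster 5 (led by Gpnmb and Saa3), 5 members were higher without overlap, against 20.3% of genes, and Nfkbid was lower, with 66.3 and 69.5 CPM in the Reg1-MO libraries and 72.1 and 89.8 CPM in the control libraries. Clusters were built from the same counts, so these values are descriptions.

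**Figure D3:**
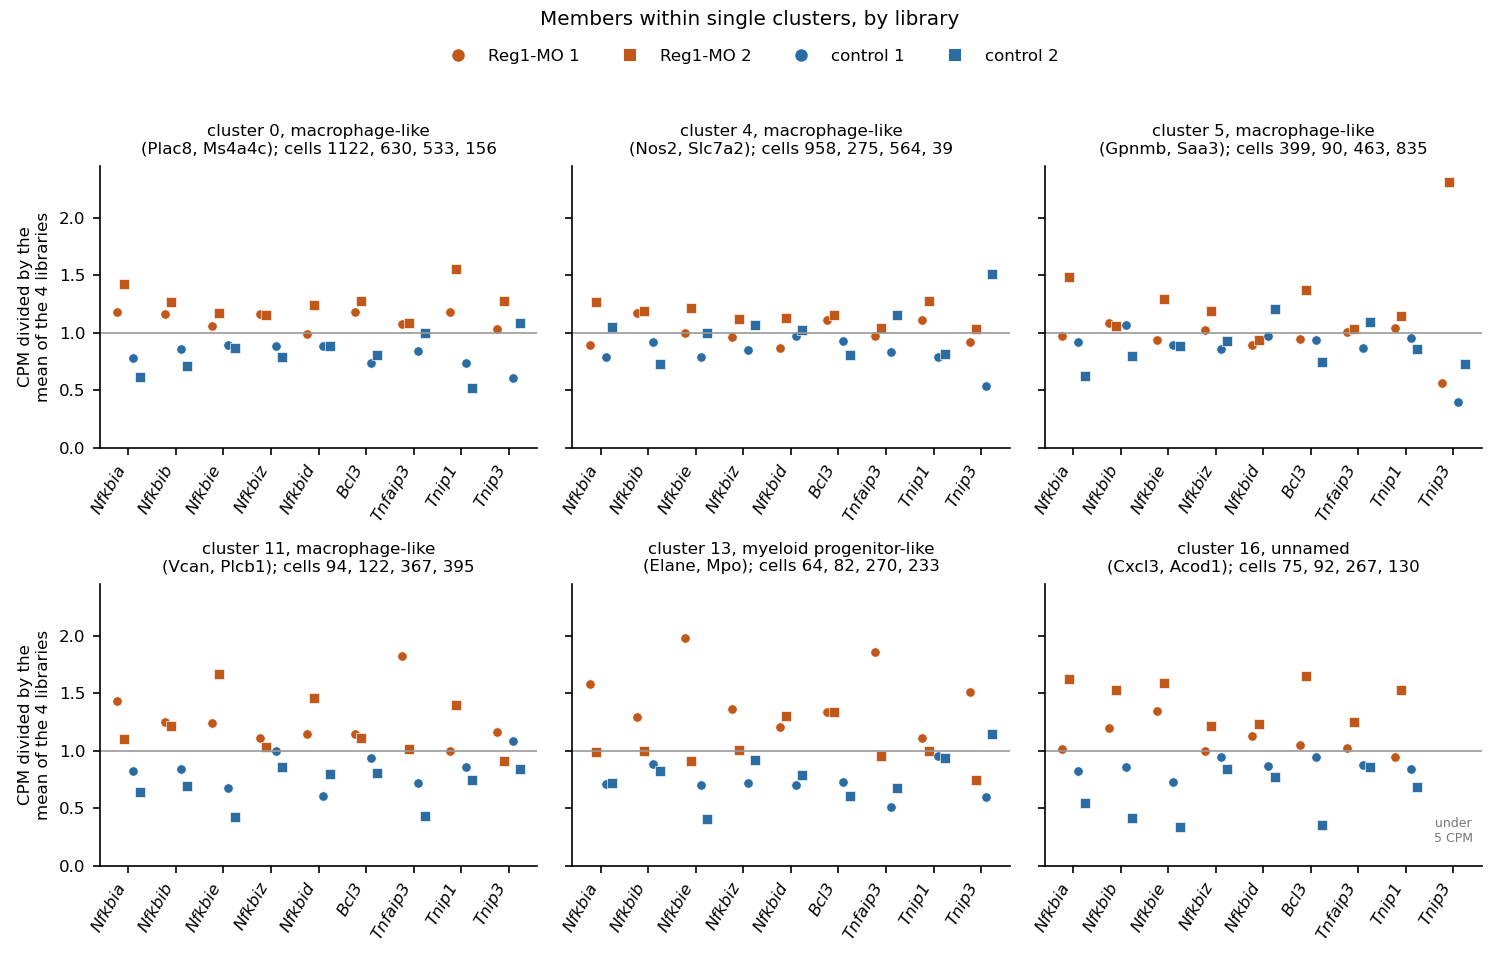
Level of each gene in 4 macrophage-like clusters, the myeloid progenitor-like cluster 13 and the unnamed cluster 16, as CPM divided by the mean of the 4 libraries (linear axis, grey line at 1). Orange points are Reg1-MO and blue points control libraries, and cell numbers in the titles run Reg1-MO 1, Reg1-MO 2, control 1, control 2; in clusters 0, 11, 13 and 16, 8 of 9 genes have both Reg1-MO points above both control points, against 3 of 9 in cluster 4.

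In myeloid progenitor-like cells, immature cells led by Elane and Mpo, Bcl3 rose in the Reg1-MO libraries. Bcl3 had 61.5 and 61.2 CPM in the Reg1-MO libraries, against 33.3 and 27.7 CPM in the control libraries, from 136 and 165 UMIs in the Reg1-MO libraries and 289 and 199 UMIs in the control libraries. The libraries of each group lay close together and the groups did not overlap, with a log2 fold change of 0.97 ± 0.16 (edgeR adjusted p = 0.0360). It was the 1 member called, where edgeR called 0.951% of 10940 genes as higher and 2.03% in either direction; DESeq2 called 3.61% of genes and 4 members, Bcl3, Nfkbia, Nfkbid and Tnfaip3. The call was lost with probable doublets kept (0.98, edgeR adjusted p = 0.107), with the replicate number as a block (0.98, edgeR adjusted p = 0.0616) and without control replicate 2 (0.83, edgeR adjusted p = 0.166), whereas 6 members passed without Reg1-MO replicate 2 (10.5% of genes).

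All 9 members had fold changes above 0 in myeloid progenitor-like cells, with a median of 0.73 against 0.0074 over all genes, and 8 of 9 were higher without overlap, against 27.8% of genes. Nfkbid, next to Bcl3, had 59.2 and 63.8 CPM in the Reg1-MO libraries, against 34.5 and 38.5 CPM in the control libraries (0.73 ± 0.14, edgeR adjusted p = 0.0522). Nfkbia had 524 and 328 CPM in the Reg1-MO libraries, against 237 and 240 CPM in the control libraries (0.81 ± 0.22, edgeR adjusted p = 0.126). Tnfaip3 had 73.7 and 37.9 CPM in the Reg1-MO libraries, against 20.2 and 26.6 CPM in the control libraries (1.22 ± 0.33, edgeR adjusted p = 0.116). In Nfkbia and Tnfaip3, unlike Nfkbid and Bcl3, Reg1-MO library 1 stood well above Reg1-MO library 2.

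Nfkbie in these cells had 26.7 and 12.2 CPM in the Reg1-MO libraries, against 9.45 and 5.43 CPM in the control libraries, from 33 to 82 UMIs per library (1.32 ± 0.44). Nfkbiz had 106 and 78.3 CPM in the Reg1-MO libraries, against 56.5 and 71.5 CPM in the control libraries (0.50 ± 0.20). The smallest separated differences were in Nfkbib (0.38 ± 0.19) and Tnip1 (0.12 ± 0.16). Tnip3, with 9.04 and 4.45 CPM in the Reg1-MO libraries and 3.57 and 6.83 CPM in the control libraries, overlapped. The class held 64 and 82 cells in the Reg1-MO libraries and 270 and 233 cells in the control libraries.

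Of 21 tested NF-κB-responsive genes in myeloid progenitor-like cells, 20 had fold changes above 0 (median 1.12) and 3 rose. Cd83, a surface protein of activated cells, had 39.8 and 22.3 CPM in the Reg1-MO libraries, against 6.80 and 6.13 CPM in the control libraries (2.22 ± 0.32, edgeR adjusted p = 0.0288). The cytokine genes Il1a (3.58 ± 0.55, edgeR adjusted p = 0.0334) and Tnf (1.52 ± 0.25, edgeR adjusted p = 0.0408) rose as well. Of 5 subunits, 4 were above 0 with a median of 0.57 and none was called. The kinase gene Ripk2, an adaptor of NOD receptors, rose among 20 tested upstream genes (0.85 ± 0.14, edgeR adjusted p = 0.0353), and Junb rose among 16 immediate early and dissociation-sensitive genes (0.84 ± 0.13, edgeR adjusted p = 0.0342). Reported Regnase-1 targets had a median of 0.55 over 12 tested genes, genes reported to depend on IκBζ 0.47 over 4, and other ubiquitin editors 0.16 over 10, with no gene called in these lists. With probable doublets kept, edgeR called 0 of 11100 genes of this class, so the calls of Cd83, Il1a, Tnf, Ripk2 and Junb were lost as well.

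Marker levels of this class also differed. The 4 myeloid progenitor markers summed to 7838 and 10492 CPM in the Reg1-MO libraries, against 17364 and 15366 CPM in the control libraries, and 3 of them fell. The 7 tested microglia markers were all above 0 and 4 rose, with sums of 287 and 311 CPM in the Reg1-MO libraries and 123 and 129 CPM in the control libraries. The 12 neutrophil markers summed to 11685 and 16023 CPM in the Reg1-MO libraries, against 31290 and 22352 CPM in the control libraries, and 2 of them fell. These marker calls too were lost with probable doublets kept. Their part in the rise of Bcl3 was not tested.

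**Figure D4:**
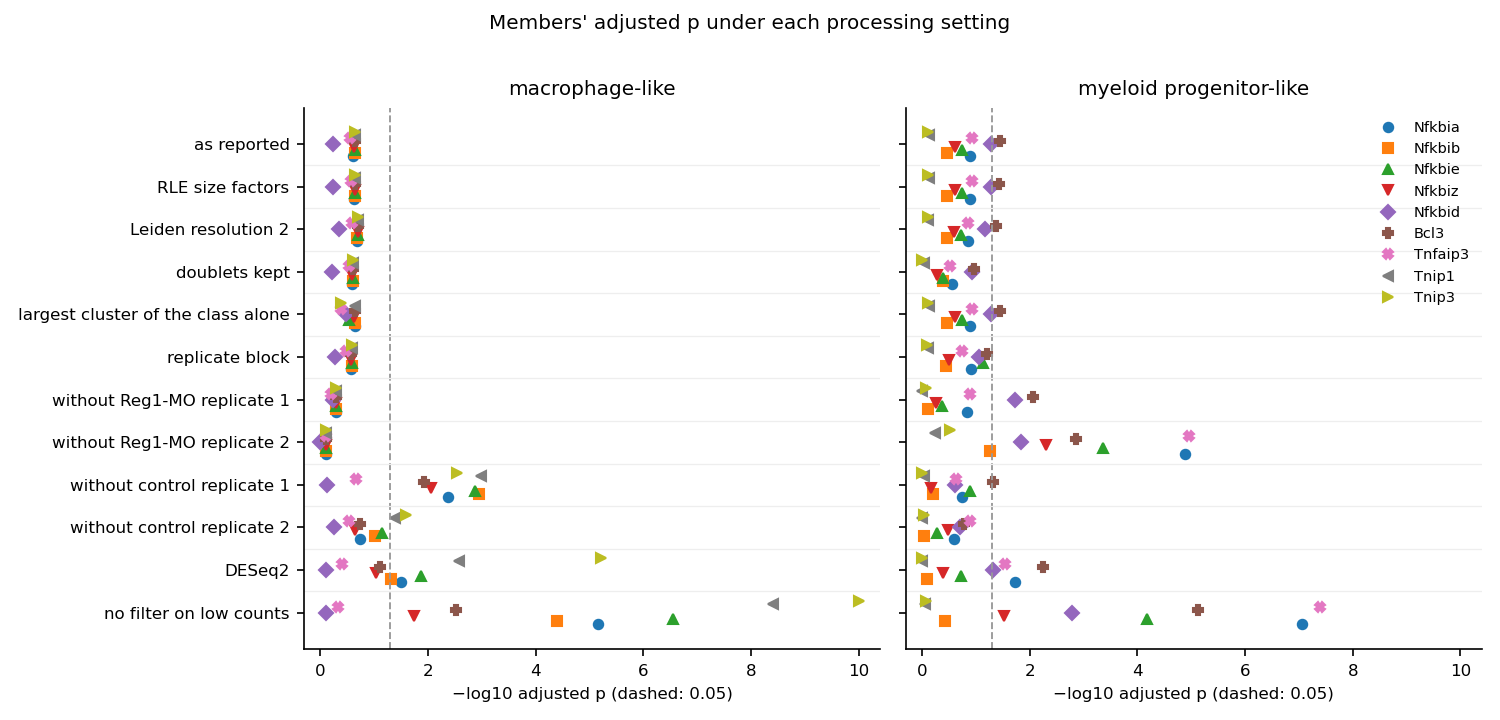
Adjusted p of each gene, as −log10 (points right of the dashed line are under 0.05), under each processing setting in macrophage-like and myeloid progenitor-like cells; the top line is the value as reported and n = 2 libraries per group unless 1 was left out. In macrophage-like cells 0 genes pass as reported and 5 with DESeq2, and in myeloid progenitor-like cells Bcl3 passes as reported.

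In neutrophil-like cells, 7 of the 8 tested members had fold changes above 0, with a median of 0.51 against -0.016 over all genes. None was called, where edgeR called 0.104% of 10611 genes. An unadjusted edgeR p under 0.05 was found for 5 members and for 1328 of these genes. DESeq2, which called 1.34% of genes, called 0 members. Nfkbie, the gene with the smallest adjusted p, had 19.99 and 16.9 CPM in the Reg1-MO libraries, against 9.96 and 9.72 CPM in the control libraries (0.98 ± 0.17, edgeR adjusted p = 0.0899). Its groups did not overlap, and the same separation occurred in 3 of 4 neutrophil-like clusters read singly. In those 4 clusters, 14.2 to 17.3% of genes with a mean of at least 5 CPM were so separated. The clusters came from the same libraries and are not repeats. The log2 fold change of Nfkbie ran from 0.92 to 1.02 when 1 library was left out. Over the other alternatives it ran from 0.36 to 1.05. In all, 5 members were higher without overlap, against 14.4% of genes.

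Nfkbia in neutrophil-like cells had 525 and 425 CPM in the Reg1-MO libraries, against 357 and 346 CPM in the control libraries (0.51 ± 0.15). Bcl3 had 33.6 and 36.1 CPM in the Reg1-MO libraries, against 27.1 and 25.6 CPM in the control libraries (0.51 ± 0.16). Tnip1 had 30.9 and 21.95 CPM in the Reg1-MO libraries, against 18.6 and 18.7 CPM in the control libraries (0.54 ± 0.16). For Tnfaip3, the values were 105 and 50.4 CPM in the Reg1-MO libraries, against 46.0 and 48.7 CPM in the control libraries (0.73 ± 0.25), so that 1 Reg1-MO library carried most of the difference. The reported Regnase-1 targets Nfkbiz (361 and 288 CPM in the Reg1-MO libraries, 270 and 336 CPM in the control libraries) and Nfkbid (90.1 and 89.8 CPM in the Reg1-MO libraries, 89.1 and 102 CPM in the control libraries) overlapped. Tnip3 did not pass the filter on low counts and was not tested, with 7 and 0 UMIs in the Reg1-MO libraries and 2 and 6 UMIs in the control libraries. The 5 subunits had a median of 0.35 and the 20 tested NF-κB-responsive genes one of 0.66, with 17 above 0; in these lists no gene was called. Macrophage/monocyte markers summed to 1584 and 1374 CPM in the Reg1-MO libraries, against 1230 and 1199 CPM in the control libraries, with 1 of 12 called as higher; their part in the members' values was not tested.

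The unnamed cluster 16, with the highest Nfkbia level, was tested as the classes were, a choice made after the clusters were seen. All 8 tested members had fold changes above 0 and did not overlap between groups, against 13.6% of 4499 genes that were higher without overlap. None was called, where edgeR called 0.0222% of genes. An unadjusted edgeR p under 0.05 was found for 7 members and for 650 of the 4499 genes. DESeq2, which called 5.79% of the genes it tested, called Nfkbia and Nfkbie. The median of the members was 1.09 with TMM scaling and 0.82 on plain CPM, since TMM moved all genes of this cluster by 0.26. Nfkbia had 3944 and 6321 CPM in the Reg1-MO libraries, against 3198 and 2115 CPM in the control libraries (1.21 ± 0.40). Nfkbie had 155 and 184 CPM in the Reg1-MO libraries, against 84.7 and 38.8 CPM in the control libraries (1.63 ± 0.40), the largest fold change of the members here. Control library 2 was the lowest of the 4 for both genes, and without control replicate 1, 4 members passed (9.38% of genes).

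The remaining members of cluster 16 had log2 fold changes between 0.57 and 1.28. Nfkbiz had 621 and 755 CPM in the Reg1-MO libraries, against 586 and 522 CPM in the control libraries (0.57 ± 0.29), and Nfkbid had 349 and 381 CPM in the Reg1-MO libraries, against 269 and 238 CPM in the control libraries (0.78 ± 0.27). Tnfaip3 had 450 and 550 CPM in the Reg1-MO libraries, against 386 and 380 CPM in the control libraries (0.65 ± 0.28). Log2 fold changes were 1.28 ± 0.40 for Nfkbib, 1.22 ± 0.49 for Bcl3 and 0.96 ± 0.35 for Tnip1. No Tnip3 UMI was seen in 3 of the 4 libraries and 1 in the other. The cluster held 75 and 92 cells in the Reg1-MO libraries and 267 and 130 cells in the control libraries, and T cell markers summed to 237 and 14.9 CPM in the Reg1-MO libraries, against 33.2 and 15.5 CPM in the control libraries; the part of other cells was not tested.

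In microglia-like cells, the resident macrophages of the central nervous system, no member was called, and edgeR called 0 of 14004 genes there, with 437 genes and 0 members at an unadjusted p under 0.05; DESeq2 called 0.201% of genes and 0 members. Nfkbia had 622 and 1176 CPM in the Reg1-MO libraries, against 587 and 659 CPM in the control libraries (0.49 ± 0.36). Nfkbiz overlapped, with 240 and 551 CPM in the Reg1-MO libraries and 244 and 337 CPM in the control libraries (0.40 ± 0.42). Tnip3 had 22.4 and 15.2 CPM in the Reg1-MO libraries, against 11.5 and 1.76 CPM in the control libraries, and its log2 fold change of 1.40 ± 0.85 was 3.45 without control replicate 1 and 0.66 without control replicate 2. Reg1-MO library 2 was the highest for Nfkbia and Nfkbiz, and in cluster 3 of this class Nfkbia had 761 and 1291 CPM in the Reg1-MO libraries, against 725 and 674 CPM in the control libraries. In this class 4 of 9 members were higher without overlap, against 18.9% of genes. The class joined clusters 3 and 8, and cluster 8, with a median of 58921 UMIs per cell, held 829 and 198 cells in the Reg1-MO libraries and 364 and 17 cells in the control libraries.

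In the T cell classes, members' log2 fold changes ran from -0.29 to 0.18 in CD4 T-like, from -0.17 to 0.36 in regulatory T-like and from -0.10 to 0.85 in CD8 T-like cells. In CD4 T-like cells, 3 members were above 0 and 6 below, with a median of -0.086. None was called, where edgeR called 0.107% of 11221 genes. An unadjusted edgeR p under 0.05 was found for 1 member and for 1531 of these genes. DESeq2 called 3.37% of the genes it tested and 0 members. Nfkbia had 1146 and 1214 CPM in the Reg1-MO libraries, against 1135 and 1138 CPM in the control libraries (0.029 ± 0.088). Tnfaip3 was lower in both Reg1-MO libraries, with 704 and 695 CPM, against 797 and 890 CPM in the control libraries (-0.29 ± 0.099), as was Nfkbiz, with 307 and 314 CPM against 343 and 333 CPM in the control libraries (-0.15 ± 0.088). Nfkbid overlapped, with 262 and 276 CPM in the Reg1-MO libraries and 260 and 332 CPM in the control libraries. In all, 2 members were higher without overlap, against 25.9% of genes, and 2 were lower, against 21.4%. Among the subunits, 4 of 5 had fold changes below 0 (median -0.24), and NF-κB-responsive genes were divided with 14 of 20 above 0 (median 0.18).

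In regulatory T-like cells, 6 of 9 members were above 0 (5 on plain CPM), 2 were higher without overlap, against 18.8% of genes, and 2 were lower, against 24.7%. None was called, where edgeR called 0.308% of 8755 genes. An unadjusted edgeR p under 0.05 was found for 0 members and for 1040 of these genes. DESeq2 called 0.628% of genes and 0 members. Nfkbia had 1579 and 1583 CPM in the Reg1-MO libraries, against 1429 and 1344 CPM in the control libraries (0.22 ± 0.11), and Tnfaip3 had 600 and 595 CPM in the Reg1-MO libraries, against 626 and 666 CPM in the control libraries (-0.081 ± 0.12). In CD8 T-like cells, 6 of 9 members were above 0 and none was called; edgeR called 0 of 10491 genes, 714 genes and 2 members had an unadjusted p under 0.05, and DESeq2 called 0.170% of genes and 0 members. Tnip3 had the largest fold change there, with 22.1 and 22.8 CPM in the Reg1-MO libraries, against 12.0 and 13.05 CPM in the control libraries (0.85 ± 0.19), and Nfkbia had 726 and 725 CPM in the Reg1-MO libraries, against 597 and 610 CPM in the control libraries (0.26 ± 0.12). In NK/ILC1-like cells, 4 of 8 tested members were higher without overlap, against 21.4% of genes. None was called, where edgeR called 0.838% of 7754 genes. An unadjusted edgeR p under 0.05 was found for 2 members and for 927 of these genes. DESeq2 called 1.54% of the 1948 genes it tested and 0 members. Tnip1 had 95.9 and 92.6 CPM in the Reg1-MO libraries, against 58.5 and 66.7 CPM in the control libraries (0.60 ± 0.20).

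Marker levels differed in the lymphocyte classes too, and those of microglia-like cells are given beside them. In NK/ILC1-like cells the 12 neutrophil markers summed to 489 and 269 CPM in the Reg1-MO libraries, against 570 and 1682 CPM in the control libraries, and 2 of 6 tested fell (Retnlg and S100a9). There 1 of 6 tested macrophage/monocyte markers (Plac8) and 1 of 3 tested regulatory T markers (Ikzf2) rose, while 1 of 3 tested CD8 T markers (Cd8b1) and the 1 tested migratory dendritic marker (Ccr7) fell. In CD4 T-like cells the neutrophil markers summed to 379.9 and 454 CPM in the Reg1-MO libraries, against 837 and 953 CPM in the control libraries, and 4 of 11 tested fell (S100a8, S100a9, Mmp8 and Ngp). In CD8 T-like cells all 11 tested neutrophil markers were below 0, with sums of 155 and 229 CPM in the Reg1-MO libraries and 672 and 2200.1 CPM in the control libraries, and none was called. In regulatory T-like cells all 4 markers of cycling, a state and not a cell type, fell. Their sums were 268 and 283 CPM in the Reg1-MO libraries and 919 and 666 CPM in the control libraries. In microglia-like cells the neutrophil markers summed to 1884 and 9917 CPM in the Reg1-MO libraries and to 17451 and 2868 CPM in the control libraries. These sums overlapped between the groups, with all 12 fold changes below 0 and none called. The part of these markers in the members' values was not tested.

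Whether the effect differed between classes was tested directly, in fits that kept the library as a block. Against CD4 T-like cells, the effect in macrophage-like cells was larger in all 9 members by sign, but none passed, where edgeR called 0% of 13432 genes. The log2 differences were 1.09 ± 0.20 for Tnip1 (edgeR adjusted p = 0.169), 0.88 ± 0.17 for Nfkbie (edgeR adjusted p = 0.172), 0.68 ± 0.16 for Nfkbiz (edgeR adjusted p = 0.184) and 0.56 ± 0.15 for Tnfaip3 (edgeR adjusted p = 0.206). Tnip3 differed by 1.26 ± 0.38 and Nfkbid by 0.30 ± 0.16. With no filter on low counts 8 members passed (4.03% of genes), without control replicate 1 6 passed (7.59%) and without control replicate 2 2 passed (0.986%). Against neutrophil-like cells, where edgeR called 0.122% of 13091 genes, no member passed; the difference was 0.32 ± 0.24 for Nfkbiz and -0.46 ± 0.25 for Tnfaip3. Against microglia-like cells, where edgeR called 0 of 14403 genes, no member passed; the difference was 0.80 ± 0.28 for Tnip1 and 0.64 ± 0.21 for Nfkbie, both with an edgeR adjusted p of 0.98. An effect seen in macrophage-like cells was therefore not shown to be particular to them, and the rise of Bcl3 in myeloid progenitor-like cells was not tested against other classes.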

How the data were processed

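CD45+ spinal cord cells were profiled with 10x Chromium 3′ v3 libraries, per the labels' protocols. The deposited matrices hold UMI counts per gene and barcode; the file headers name Cell Ranger 5.0.1. In the submitters' processing notes, mm10 and Seurat 4.0 are named without a role. Barcodes under 500 UMIs, under 200 genes or over 10% mitochondrial UMIs were dropped. Cells with the highest Scrublet scores (0.8% per 1000 barcodes) were removed as probable doublets: 635 and 217 in the Reg1-MO libraries, 534 and 359 in the control libraries. Between 10 and 78 barcodes were shared by pairs of libraries.

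Counts were normalised to 10000 per cell, and 3000 variable genes, 40 principal components and 15 neighbours gave Leiden clusters at resolution 1 (scanpy 1.11.5). Clusters were named from marker lists. Raw counts were summed per library and class. Classes with at least 50 cells in every library were tested with edgeR 4.0.16 (quasi-likelihood F-test, TMM, filterByExpr with a minimum count of 10), with adjustment over all genes tested in a class and a threshold of 0.05. CPM values are per 1000000 UMIs of the class sum, and fold changes use TMM. Alternatives were RLE scaling, DESeq2 1.42.0, no filter, a replicate block, each library left out, doublets kept, resolution 2 and the largest cluster of a class alone. The fit was tested on simulated data. Wilson intervals cover counting error only.

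The members and gene lists were chosen with earlier results of these data known. All 9 members are named; from each list up to 4 called genes by smallest p are named, or the 2 with the highest mean CPM. A few genes beyond this rule are named where a count rests on them.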

Additional observations from a re-analysis of the deposited data

Results flagged for a closer look

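Several members were lower without overlap in 1 or 2 T cell classes and higher without overlap in other cells. In CD4 T-like cells 2 of 9 members were lower so, against 21.4% of genes. In regulatory T-like cells 2 of 9 were lower so, against 24.7% of genes. Both counts lay near the share over all genes, so they do not set the members apart from other genes. Where members were higher, 13.6 to 27.8% of the genes of the class or cluster were higher without overlap. Apart from macrophage-like against CD4 T-like cells, these differences were not tested. Nfkbib was lower in regulatory T-like cells, with 70.9 and 64.5 CPM in the Reg1-MO libraries and 74.2 and 72.3 CPM in the control libraries (log2 fold change -0.070). That fold change ran from -0.16 to 0.024 when 1 library was left out. Nfkbib was higher in 7 other classes or clusters. Nfkbiz was lower in CD4 T-like cells (-0.15) and higher in 4 others, namely CD8 T-like, macrophage-like and myeloid progenitor-like cells and cluster 16. Tnfaip3 was lower in CD4 T-like cells (-0.29) and in regulatory T-like cells (-0.081) and higher in 4 others, namely macrophage-like, myeloid progenitor-like and neutrophil-like cells and cluster 16. In the test of macrophage-like against CD4 T-like cells, the log2 differences of 0.68 for Nfkbiz and 0.56 for Tnfaip3 did not pass (edgeR adjusted p = 0.184 and 0.206).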

How the results depend on the processing

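The sign of 51 of 78 members' fold changes held under every alternative run, and 27 changed sign under at least 1, the largest of these having a size of 0.40. Counts of called members depended on the setting. With no filter on low counts, 7 were called in macrophage-like (9.65% of genes), 6 in myeloid progenitor-like (7.20%) and 2 in neutrophil-like cells (3.37%). That setting also called 1 in CD8 T-like cells (1.28%) and 3 in cluster 16 (1.97%). It called 8 in the difference of macrophage-like minus CD4 T-like cells (4.03%). DESeq2 called 5 in macrophage-like (4.37%), 4 in myeloid progenitor-like cells (3.61%) and 2 in cluster 16 (5.79%). The replicate block called 0 in myeloid progenitor-like (1.01% of genes) and 1 in neutrophil-like cells (2.40%), and 1 in cluster 16 (2.93%). Keeping doublets called 0 in myeloid progenitor-like cells (0% of genes). Leaving out 1 library also moved the count of called members in macrophage-like, myeloid progenitor-like, neutrophil-like and regulatory T-like cells and in cluster 16. The count for the difference of macrophage-like minus CD4 T-like cells moved as well. The arm left with 1 library is assumed to vary like the other. Some small fold changes turned sign when 1 library was left out: Nfkbid over -0.32 to 0.026 in CD4 T-like, -0.013 to 0.30 in macrophage-like and -0.11 to 0.079 in neutrophil-like cells, Nfkbiz over -0.21 to 0.83 in microglia-like cells, Tnip1 over -0.00092 to 0.23 and Tnip3 over -0.28 to 0.86 in myeloid progenitor-like cells, and Nfkbib over -0.16 to 0.024 in regulatory T-like cells. Tnip3 in myeloid progenitor-like cells was also -0.022 with doublets kept, and Nfkbid in neutrophil-like cells 0.014 with RLE and 0.024 at resolution 2, against -2.0e-05 as reported. The replicate numbers share only a number: same-numbered libraries deviated together with correlations of -0.07 to 0.06 in all tested classes and cluster 16 except microglia-like (0.33) and myeloid progenitor-like cells (0.12), over 2 pairs. Counts of all genes called moved as well: over all alternatives, 0 to 2496 in macrophage-like, 0 to 1300 in myeloid progenitor-like, 10 to 619 in neutrophil-like, 1 to 636 in CD4 T-like, 1 to 458 in regulatory T-like, 15 to 189 in NK/ILC1-like, 0 to 227 in CD8 T-like and 0 to 28 in microglia-like cells and 0 to 468 in cluster 16. Cluster 16 was not tested with doublets kept, at resolution 2 or as the largest cluster of a class. Tnip3 in neutrophil-like cells, NK/ILC1-like cells and cluster 16 did not pass the filter on low counts, so the fit as reported did not test it there. The cause of these changes was not tested.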

Other observations

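Conventional dendritic-like cells, held in cluster 14, were not tested because control library 2 had 49 of them. There 6 of 9 members were higher in both Reg1-MO libraries than in either control library, against 21.3% of genes with a mean of at least 5 CPM. Nfkbia had 809 and 1037 CPM in the Reg1-MO libraries, against 515 and 359 CPM in the control libraries. Nfkbie, with 86.7 and 109 CPM in the Reg1-MO libraries and 87.8 and 52.2 CPM in the control libraries, overlapped, as did Tnip3, with 86.4 and 123 CPM in the Reg1-MO libraries and 169 and 69.9 CPM in the control libraries.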
